A study of Rattus norvegicus with 27 samples.

Results

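The genes described here encode the machinery that carries a cell through G1, the phase before DNA is copied. They are 3 D-type cyclins, 1 E-type cyclin, the 2 kinases that pair with D-type cyclins, and 4 inhibitors of cyclin-dependent kinases (CDKs). They were picked by name, as *Ccnd1*, *Ccnd2*, *Ccnd3*, *Ccne1*, *Cdk4*, *Cdk6*, *Cdkn1a*, *Cdkn1b*, *Cdkn1c* and *Cdkn2c*, and all 10 are among the 17315 genes of the cell mRNA table. Their mRNA was measured by RNA sequencing of cultured rat Schwann cells, the myelin-forming glia of peripheral nerve, at 3 stages with 3 libraries each. Differentiated cells had been kept for 72 h with 1 mM dibutyryl cyclic AMP (dbcAMP), a form of cyclic AMP that enters cells, in medium with 1% serum. Dedifferentiated cells went through the same 72 h of dbcAMP and then spent another 72 h without it, in medium with 10% serum, forskolin and 10 ng/mL neuregulin. Forskolin activates the enzyme that makes cyclic AMP, and neuregulin is a Schwann cell mitogen. Undifferentiated controls received no dbcAMP, and the labels do not say which medium they were in at harvest. Medium and stage therefore changed together, and effects of dbcAMP, serum, forskolin and neuregulin cannot be told apart. All cells were a commercial primary culture used at passages 3 to 5, with no neurons named in the culture. The titles call the libraries biological replicates without saying what separates them. The p-values therefore weigh differences between stages against the variation between these libraries, and may not extend to other cultures.

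D-type cyclins are made in response to mitogens. They bind Cdk4 or Cdk6, and the complex phosphorylates the retinoblastoma protein, which then releases E2F transcription factors. E2F switches on *Ccne1* and the genes of DNA synthesis, and cyclin E with Cdk2 completes the step into S phase. INK4 inhibitors such as the product of *Cdkn2c* (p18) bind Cdk4 and Cdk6 alone. Cip/Kip inhibitors (*Cdkn1a*, p21; *Cdkn1b*, p27; *Cdkn1c*, p57) block cyclin E with Cdk2, while p21 and p27 also help D-type cyclins to assemble with their kinases. In Schwann cells cyclic AMP is known both to promote myelin gene expression and to act with neuregulin as a mitogenic signal.

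Libraries held 10058735 to 16212278 estimated counts and 11282 to 11833 detected genes, and 10372 genes passed the filter on low counts, the 10 genes among them. Levels below are counts scaled to the column total (CPM). Changes are log2 differences between stages from edgeR's quasi-likelihood test with TMM scaling, and genes with an adjusted p under 0.05 (Benjamini-Hochberg, over all 10372) are referred to as called. Of 8 Schwann lineage markers, 7 were above 1 CPM in every library and *Fabp7* was at 0, with summed levels of 7680 to 8700, 6460 to 6910 and 10600 to 11000 CPM in undifferentiated, differentiated and dedifferentiated cells. The 8 fibroblast markers summed to 24400 to 29100, 11900 to 15600 and 15900 to 19400 CPM at these stages. Of these markers *Col1a1* and *Col1a2* are also made by Schwann cells. *Pi16* measured 1.179 to 2.855 CPM over all libraries, and *Thy1* at most 1.916 CPM. *Lum* was at 0 throughout, *Dpt* was at most 0.0848 CPM, and *Dcn* and *Pdgfra* were each at most 0.884 CPM. The part of this list in the results was not tested. The 6 macrophage markers summed to at most 5.09 CPM, the 5 endothelial markers to at most 22.5 CPM and the 4 mural markers to at most 13.3 CPM. The 5 neuronal markers summed to at most 98.6 CPM. Of these *Tubb3* measured 34.8 to 74.5 CPM and *Map2* 8.2 to 27.8 CPM over all libraries. *Rbfox3*, *Snap25* and *Syt1* were each at most 0.221 CPM.

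Most of the G1 genes were at their highest under dbcAMP. In differentiated against undifferentiated cells 8 of the 10 were called higher, where 31.7% of all genes tested were, and 0 were called lower, where 27.9% of all genes were. On withdrawal 8 of the 10 were called lower and 0 higher, each against a background of 23.2% of all genes. These counts of 0 were also 0 at an unadjusted p under 0.05 in edgeR and with DESeq2's Wald test. In dedifferentiated against undifferentiated cells 4 were called higher, against 16.1% of all genes, and 2 lower, against 13.3%. Both lower calls, of *Cdk4* and *Cdkn1c*, were lost in the first of 2 sequencing projects alone, and that of *Cdkn1c* also in 6 of the 9 fits that left out a library. The median log2 change of the 10 was 1.93, -1.2 and 0.409 in these comparisons, and that of all genes tested 0.0526, -0.0072 and 0.0184. Libraries of 2 stages often did not overlap. All differentiated libraries lay above all undifferentiated ones for 7 of the 10, against 38.9% of all genes tested, and below for 0, against 27.4%. On withdrawal 8 lay wholly below, against 30.2%, and 0 above, against 28.3%. Between dedifferentiated and undifferentiated cells 5 lay wholly above, against 26.8%, and 2 below, against 17.1%. The comparisons share libraries, so a level high at the middle stage enters the first and second of them with opposite signs.

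**Figure D1:**
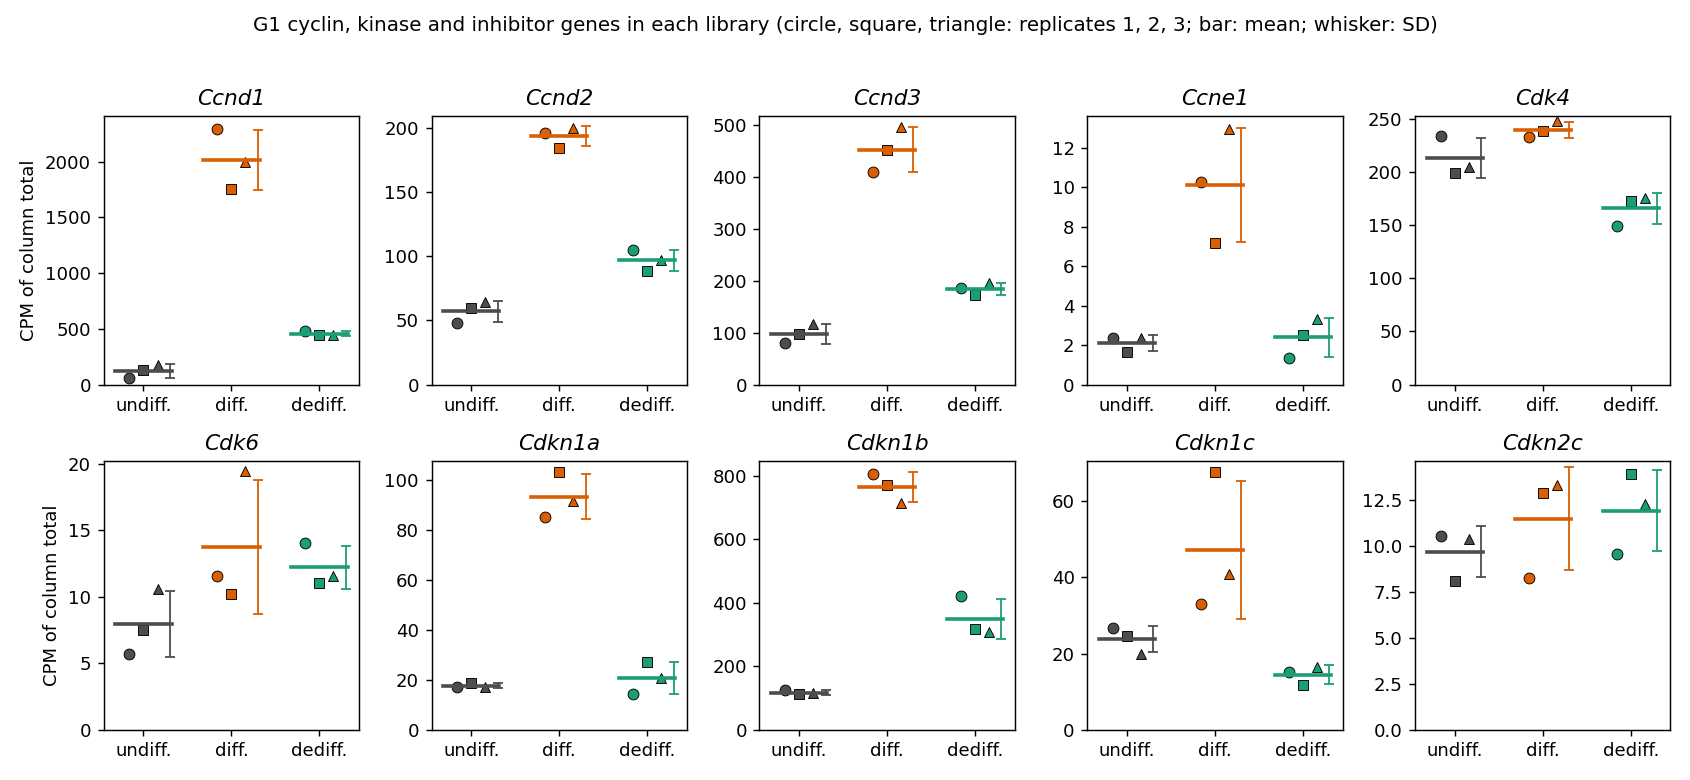
Level of each of the 10 genes (vertical axis, CPM of the column total, a separate scale for each gene, starting at 0) in the 9 libraries, grouped by stage along the horizontal axis. Points are libraries, bars are means and whiskers are SDs of 3 libraries. For *Ccnd1*, *Ccnd2*, *Ccnd3*, *Ccne1*, *Cdkn1a*, *Cdkn1b* and *Cdkn1c* the lowest differentiated library lies above every library of the other stages. Of all genes tested, 38.9% have every differentiated library above every undifferentiated one, and 30.2% have every dedifferentiated library below every differentiated one.

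**Figure D2:**
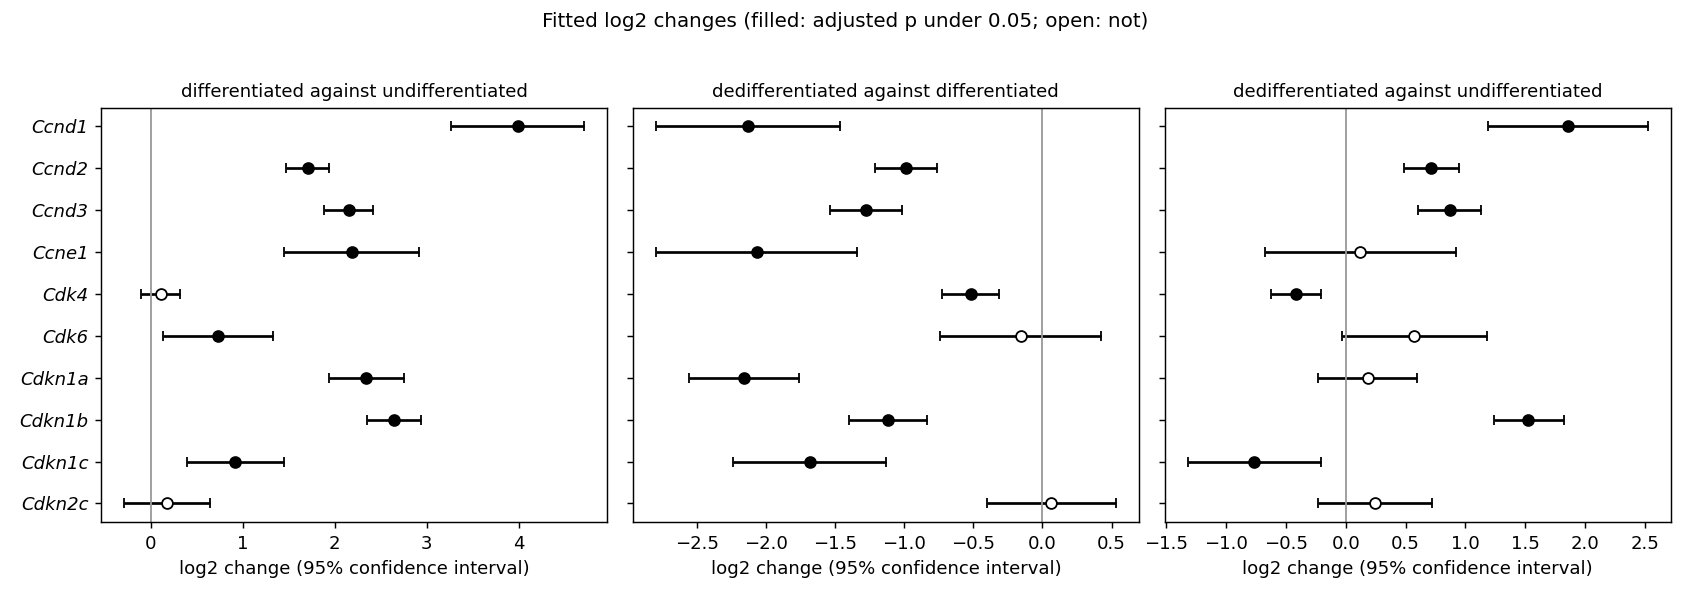
Fitted log2 change of each gene (horizontal axis) with its 95% confidence interval in the 3 comparisons. Filled points have an adjusted p under 0.05. The largest change is the rise of *Ccnd1* by 3.99 in differentiated cells.

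Promoter sequences from RefSeq (build GRCr8) were available for 6 of the 10 genes, as 250 bases before to 50 bases after the transcript start that the table uses. They were searched on both strands for letters that matter to cyclic AMP signalling and to E2F. The core TGACG of the cyclic AMP response element was found once each in *Ccnd3*, *Cdkn1a* and *Cdkn1b*, and in 21.2% of all 33469 promoters of that length. The 6 promoters held 56.7% to 73.3% G and C, against a median of 51.7% over all promoters. The share of 21.2% was not adjusted for this. The core begins 52 bases before the start in *Ccnd3*, 243 bases before it in *Cdkn1a* and 92 bases before it in *Cdkn1b*, on the opposite strand in the last 2. It was not found in *Ccne1*, *Cdk4* or *Cdkn2c*. *Ccnd3*, *Cdkn1a* and *Cdkn1b*, with the core, rose 4.44-, 5.07- and 6.25-fold under dbcAMP. Without the core, *Ccne1* rose 4.56-fold, while *Cdk4* and *Cdkn2c* were not called (fitted folds 1.08 and 1.13). Whether the core goes with a rise was not tested. The full element TGACGTCA, which contains the core, and the E2F sites TTTCCCGC and TTTGGCGC were in none of the 6, against 1.83% and 1.45% of all promoters. With shares this low, absence from 6 promoters says little. Only exact copies were searched, so other forms of an E2F site may be present. The 3 promoters with the core are shown because they hold it, with the core in capitals (as CGTCA where it lies on the opposite strand). They lie at chr9:20897826-20898125 on the minus strand, chr20:7150682-7150981 on the plus strand and chr4:169491254-169491553 on the plus strand.
Ccnd3: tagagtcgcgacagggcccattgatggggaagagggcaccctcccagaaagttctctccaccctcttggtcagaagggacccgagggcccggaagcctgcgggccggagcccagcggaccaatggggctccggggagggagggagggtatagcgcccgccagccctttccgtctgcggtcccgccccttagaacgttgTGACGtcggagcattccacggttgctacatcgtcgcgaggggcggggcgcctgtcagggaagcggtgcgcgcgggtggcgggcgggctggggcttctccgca
Cdkn1a: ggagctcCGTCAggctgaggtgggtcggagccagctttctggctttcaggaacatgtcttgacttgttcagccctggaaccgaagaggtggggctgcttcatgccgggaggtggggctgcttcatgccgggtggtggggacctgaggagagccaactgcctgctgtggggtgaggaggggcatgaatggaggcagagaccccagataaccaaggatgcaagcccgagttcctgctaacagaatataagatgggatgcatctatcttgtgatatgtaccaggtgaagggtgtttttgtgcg
Cdkn1b: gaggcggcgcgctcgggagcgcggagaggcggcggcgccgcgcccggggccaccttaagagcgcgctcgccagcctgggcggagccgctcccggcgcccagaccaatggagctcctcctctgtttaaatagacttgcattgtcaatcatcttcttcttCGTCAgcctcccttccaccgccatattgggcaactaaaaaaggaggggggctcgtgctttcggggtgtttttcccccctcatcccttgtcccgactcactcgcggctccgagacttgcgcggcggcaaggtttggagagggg

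The D-type cyclins shared an order of stages, with undifferentiated cells lowest, dedifferentiated cells between and differentiated cells highest. *Ccnd1* encodes cyclin D1, the D-type cyclin that mitogens induce in many cell types. It measured 56.8, 134 and 178 CPM in undifferentiated replicates 1, 2 and 3, then 2296, 1754 and 1996 CPM in differentiated and 479.7, 439.9 and 446 CPM in dedifferentiated cells. No library of 1 stage overlapped another stage, and the undifferentiated libraries were the most uneven, replicate 1 having the lowest level. *Ccnd1* rose 15.9-fold on differentiation (log2 change 3.99, SE 0.327, edgeR adjusted p = 2.21e-06; 95% confidence interval 9.61- to 26.2-fold). On withdrawal it fell by 2.14 on the log2 scale (SE 0.301, edgeR adjusted p = 0.000236), which left it 3.61-fold above undifferentiated cells (edgeR adjusted p = 0.00106).

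*Ccnd2* encodes cyclin D2. It measured 47.8, 59.5 and 64.2 CPM in the undifferentiated replicates, 197, 185 and 200.2 CPM in the differentiated and 105, 89 and 96.9 CPM in the dedifferentiated ones. The stages did not overlap. Its log2 change was 1.70 on differentiation (SE 0.105, edgeR adjusted p = 2.54e-07), -0.99 on withdrawal (SE 0.102, edgeR adjusted p = 2.78e-05) and 0.72 between dedifferentiated and undifferentiated cells (SE 0.104, edgeR adjusted p = 5e-04).

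*Ccnd3* encodes cyclin D3, and its promoter is printed above. It measured 79.2, 96.9 and 117 CPM in the undifferentiated replicates, 409, 452 and 496 CPM in the differentiated and 186, 172 and 195 CPM in the dedifferentiated ones. The stages again did not overlap. Its log2 change was 2.15 on differentiation (SE 0.123, edgeR adjusted p = 1.59e-07), -1.28 on withdrawal (SE 0.119, edgeR adjusted p = 1.31e-05) and 0.87 against undifferentiated cells (SE 0.12, edgeR adjusted p = 0.000356).

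The D-type cyclins did not rise in proportion. The share of their summed counts in a library needs no scaling between libraries, though it is not corrected for transcript length, so its change between stages is what can be read. *Ccnd1* held 30.9%, 46.1% and 49.5% of these counts in the undifferentiated replicates, 79.1%, 73.4% and 74.1% in the differentiated and 62.2%, 62.7% and 60.4% in the dedifferentiated ones. Its mean share went from 42.2% ± 9.89 to 75.5% ± 3.13 and back to 61.8% ± 1.22 (SD, n = 3), with no overlap between stages. The share of *Ccnd2* was 21.5% ± 4.15, 7.32% ± 0.492 and 13.1% ± 0.462, and that of *Ccnd3* 36.4% ± 5.83, 17.1% ± 2.65 and 25.1% ± 1.22 (SD, n = 3). Each of the 9 differences in share between 2 stages had a two-sided exact permutation p of 0.1, before and after adjustment over the 9, and 0.1 is the smallest that 3 libraries against 3 can give. Both shares fell while the levels of *Ccnd2* and *Ccnd3* rose.

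**Figure D3:**
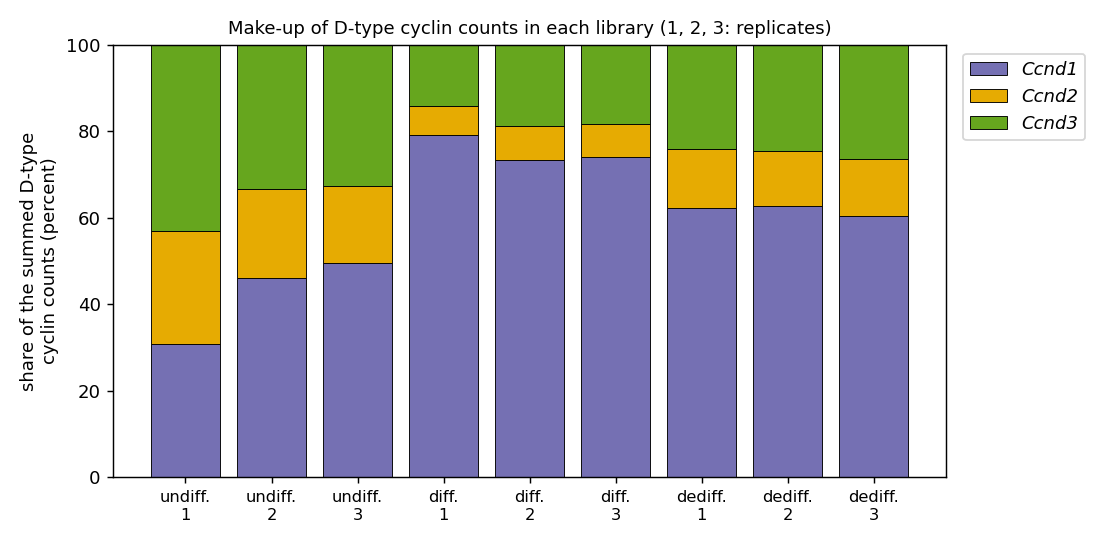
Share of the summed *Ccnd1*, *Ccnd2* and *Ccnd3* counts held by each gene (vertical axis, percent) in the 9 libraries, ordered by stage and replicate. The *Ccnd1* part is 30.9% to 49.5% in undifferentiated, 73.4% to 79.1% in differentiated and 60.4% to 62.7% in dedifferentiated libraries.

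*Ccne1* encodes cyclin E1, the partner of Cdk2 at the start of S phase. It measured 2.34, 1.63 and 2.36 CPM in the undifferentiated replicates, 10.2, 7.18 and 13 CPM in the differentiated and 1.36, 2.49 and 3.31 CPM in the dedifferentiated ones, from 16 to 210 counts a library. The differentiated libraries stood above all others, and the other stages overlapped. Its log2 change was 2.19 on differentiation (SE 0.332, edgeR adjusted p = 0.000213) and -2.07 on withdrawal (SE 0.33, edgeR adjusted p = 0.000539). Between dedifferentiated and undifferentiated cells the fitted fold was 1.09 with a 95% confidence interval of 0.625 to 1.89 (edgeR adjusted p = 0.83).

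The kinases moved less than the D-type cyclins they bind. *Cdk4* measured 234, 199 and 205 CPM in the undifferentiated replicates, 233, 239 and 248 CPM in the differentiated and 149, 173 and 176 CPM in the dedifferentiated ones. Undifferentiated and differentiated libraries overlapped, and every dedifferentiated library lay below both. *Cdk4* was not called on differentiation (fitted fold 1.08, 95% confidence interval 0.933 to 1.24, edgeR adjusted p = 0.347). It fell by 0.52 on the log2 scale on withdrawal (SE 0.0944, edgeR adjusted p = 0.00121) and was 1.33-fold lower in dedifferentiated than in undifferentiated cells (log2 change -0.41, SE 0.0945, edgeR adjusted p = 0.00781). It was the single one of the 10 called lower on withdrawal without having been called higher under dbcAMP. Its call against undifferentiated cells was lost in the first sequencing project alone (log2 change -0.49, edgeR adjusted p = 0.0621).

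*Cdk6* was counted more thinly, with 71 to 316 counts a library. It measured 5.72, 7.5 and 10.6 CPM in the undifferentiated replicates, 11.6, 10.2 and 19.5 CPM in the differentiated and 14.1, 11 and 11.6 CPM in the dedifferentiated ones. Differentiated replicate 3 stood well above the other differentiated libraries, and the differentiated stage overlapped both others. Its log2 change of 0.73 on differentiation was called (SE 0.27, edgeR adjusted p = 0.0367). Without differentiated replicate 3 the change was 0.40 and not called (edgeR adjusted p = 0.191). The call was also lost without undifferentiated replicate 1 or 2 (0.56 and 0.66, edgeR adjusted p = 0.111 and 0.105), without dedifferentiated replicate 1 or 2 (both 0.70, edgeR adjusted p = 0.0506 and 0.0579), and in the first sequencing project alone (0.65, edgeR adjusted p = 0.0749). Dedifferentiated cells were not called against differentiated cells (log2 change -0.16, 95% confidence interval -0.742 to 0.425) or against undifferentiated cells (0.57, -0.0307 to 1.18), with edgeR adjusted p of 0.648 and 0.142.

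All 3 Cip/Kip inhibitor genes were highest in differentiated cells, and their calls against undifferentiated cells differed after withdrawal. *Cdkn1a* encodes p21, which many stress and growth signals induce. It measured 17, 18.6 and 17.2 CPM in the undifferentiated replicates, 85, 103 and 91.7 CPM in the differentiated and 14.4, 27.1 and 20.7 CPM in the dedifferentiated ones. The differentiated libraries were separate, while dedifferentiated libraries fell on both sides of the undifferentiated ones. *Cdkn1a* rose 5.07-fold on differentiation (log2 change 2.34, SE 0.182, edgeR adjusted p = 1.47e-06) and fell by 2.16 on the log2 scale on withdrawal (SE 0.18, edgeR adjusted p = 6.32e-06). Its fold between dedifferentiated and undifferentiated cells was 1.14, with a 95% confidence interval of 0.854 to 1.51 (edgeR adjusted p = 0.501).

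*Cdkn1b* encodes p27, an inhibitor linked to cell cycle exit that is also controlled through breakdown of the protein, which mRNA counts do not show. It measured 125, 111 and 115 CPM in the undifferentiated replicates, 808, 771 and 715 CPM in the differentiated and 421, 316 and 309 CPM in the dedifferentiated ones. No stage overlapped another. *Cdkn1b* rose 6.25-fold on differentiation (log2 change 2.64, SE 0.135, edgeR adjusted p = 7.23e-08), the second largest change of the 10 after *Ccnd1*. It fell by 1.12 on the log2 scale on withdrawal (SE 0.128, edgeR adjusted p = 5.68e-05). Dedifferentiated cells still held 2.88-fold more than undifferentiated cells (log2 change 1.53, SE 0.131, edgeR adjusted p = 1.44e-05).

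*Cdkn1c* encodes p57, the product of an imprinted gene. It measured 26.8, 24.7 and 20 CPM in the undifferentiated replicates, 33.1, 67.7 and 40.8 CPM in the differentiated and 15.2, 11.7 and 16.4 CPM in the dedifferentiated ones. The stages did not overlap, and differentiated replicate 2 stood above the other libraries of its stage. Its log2 change was 0.92 on differentiation (SE 0.241, edgeR adjusted p = 0.00696) and -1.69 on withdrawal (SE 0.25, edgeR adjusted p = 0.000324). Without differentiated replicate 2 the first was 0.58, and in the first sequencing project alone it was not called (0.89, edgeR adjusted p = 0.0541). *Cdkn1c* ended 1.7-fold below undifferentiated cells (log2 change -0.77, SE 0.252, edgeR adjusted p = 0.0424). That call was lost in 9 of 17 alternatives, over which its adjusted p ranged from 0.00734 to 0.121. Among them were the fits without undifferentiated replicate 1 or 2, differentiated replicate 3 or any 1 dedifferentiated replicate, with log2 changes of -0.86 to -0.65.

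*Cdkn2c*, the INK4 gene of the group, encodes p18 and had 84 to 216 counts a library. It measured 10.6, 8.08 and 10.4 CPM in the undifferentiated replicates, 8.25, 12.9 and 13.3 CPM in the differentiated and 9.58, 13.9 and 12.3 CPM in the dedifferentiated ones. All 3 stages overlapped. It was not called in any comparison, with fitted folds of 1.13 (95% confidence interval 0.818 to 1.57), 1.05 (0.757 to 1.44) and 1.18 (0.853 to 1.64) and edgeR adjusted p of 0.486, 0.823 and 0.43.

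After withdrawal the genes that had risen under dbcAMP thus held different positions against undifferentiated cells. *Ccnd1*, *Ccnd2*, *Ccnd3* and *Cdkn1b* were called higher, *Cdkn1c* was called lower, and *Ccne1*, *Cdk6* and *Cdkn1a* were not called. Within a library the ratio of *Ccnd1* to *Cdkn1b* counts, which is not corrected for length, was 0.454 to 1.55 in undifferentiated, 2.27 to 2.84 in differentiated and 1.14 to 1.44 in dedifferentiated cells. The ratio was thus above all others in differentiated cells, while the other stages overlapped. That of *Ccne1* to *Cdkn1b* counts did not follow this order. It was 0.0147 to 0.0205 in undifferentiated, 0.00931 to 0.0181 in differentiated and 0.00322 to 0.0107 in dedifferentiated cells. Differentiated cells overlapped both other stages, and dedifferentiated cells lay below undifferentiated ones. The ratio of *Ccnd1* to *Cdk4* counts was 0.242 to 0.867, 7.35 to 9.86 and 2.54 to 3.23 at the 3 stages in order, with no overlap.

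The labels give replicates 1 and 2 one sequencing project and replicate 3 another, each with all 3 stages. In the first project alone, with 2 libraries a stage, 6 of the 8 genes called higher on differentiation were called, *Cdk6* and *Cdkn1c* being lost. All 8 called lower on withdrawal were called there. The 4 genes called higher in dedifferentiated than in undifferentiated cells were called there too, and neither *Cdk4* nor *Cdkn1c*. Calls also fell over all genes. The first project alone called 4358, 2606 and 1283 of 10371 genes in the 3 comparisons, with 53.1%, 52.2% and 61.5% of these higher. The fit of all libraries called 6179, 4809 and 3045 of 10372, with 53.2%, 50% and 54.7% higher. The second project has 1 library a stage and so no test. There the log2 ratio of CPM for the 8 genes was 0.879 (*Cdk6*) to 3.49 (*Ccnd1*) on differentiation. It was -2.16 (*Ccnd1*) to -0.496 (*Cdk4*) on withdrawal for the 8 that were called lower. Against undifferentiated cells it was 0.594 (*Ccnd2*) to 1.43 (*Cdkn1b*) for the 4 called higher. For *Cdk4* and *Cdkn1c*, called lower, it was -0.225 and -0.283, where the fitted changes in the first project were -0.494 and -0.993. *Cdk6*, not called on withdrawal, had -0.751 in the second project and a fitted 0.222 in the first.

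Other genes of the pathway were taken from lists by role, and the percentages of all genes called are those given above. The S-phase list held 17 genes, mostly of DNA synthesis, such as those of the MCM helicase, with cell cycle genes such as *Cdk1*, *Mki67* and *Top2a* that also mark later phases. Of the 17, 12 were called higher and 1 lower in differentiated against undifferentiated cells, with a median log2 change of 1.11. Each fit without 1 library called 10 to 13 of them higher. *Pcna*, the sliding clamp of DNA polymerase, rose from 54.2 ± 0.566 to 90.4 ± 5.72 CPM (SD, n = 3; log2 change 0.68, edgeR adjusted p = 2.79e-05). *Mcm3*, a helicase subunit, rose by 1.64 in log2 (edgeR adjusted p = 0.000286). *Cdt1*, which licenses replication origins, was the single gene of the list called lower (log2 change -1.40, edgeR adjusted p = 0.000335).

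On withdrawal 12 of the 17 were called lower and 1 higher (median -0.849), with *Mcm3* and *Pcna* falling by 1.37 and 0.38 and *Cdt1* rising by 1.09 in log2 (edgeR adjusted p = 0.00145, 0.00236 and 0.00292). The 12 depended on which library was left out. They became 14, 7 and 3 without differentiated replicates 1, 2 and 3 in turn, and 5, 6 and 5 without dedifferentiated replicates 1, 2 and 3. Without an undifferentiated library 11 to 13 were called lower, and in the first sequencing project alone 2 were. Against undifferentiated cells 2 were called higher and 1 lower (median 0.27), among them *Pcna* and *Mcm6*, by 0.29 and -0.65 in log2 (edgeR adjusted p = 0.0171 and 0.0372). None of the 3 was called in the first sequencing project alone or without dedifferentiated replicate 2 or 3 or undifferentiated replicate 2, and without each other undifferentiated or dedifferentiated library 1 was.

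The summed level of these 17 genes was 317, 346 and 391 CPM in undifferentiated replicates 1, 2 and 3, 437, 628 and 799 CPM in the differentiated and 347, 392 and 403 CPM in the dedifferentiated ones. Differentiated libraries were highest, and their spread was the widest. *Mki67*, a proliferation marker and 1 of the 17, measured 0.322, 7.5 and 16 CPM in the undifferentiated replicates, 22.6, 58.5 and 84.1 CPM in the differentiated and 13.4, 17.1 and 17.4 CPM in the dedifferentiated ones. The order of replicates for *Mki67* matched that for *Ccnd1* in undifferentiated cells only. Replicate 1 had the least *Mki67* at each stage, but the least *Ccnd1* in undifferentiated cells and the most in differentiated and dedifferentiated cells. These values were set side by side after those of *Ccnd1* were seen. Bulk RNA cannot tell a larger share of cycling cells from more RNA per cell.

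Of the 10 tested pocket protein and E2F genes 6 were called higher and 0 lower on differentiation, with a median log2 change of 0.561 and 0 lower also at an unadjusted p under 0.05 and with DESeq2. *Tfdp2*, a dimer partner of E2F, rose by 2.04, *Tfdp1* by 0.52 and *E2f1* by 0.99 in log2 (edgeR adjusted p = 9e-06, 0.000246 and 0.000397). On withdrawal 3 were called lower, or 5 with DESeq2 and without differentiated replicate 1 or dedifferentiated replicate 1, and 1 was called higher. *Tfdp1* fell by 0.61 (edgeR adjusted p = 0.000155). *E2f1* fell by 0.65 and the retinoblastoma relative *Rbl2* rose by 0.36 (edgeR adjusted p = 0.0078 and 0.00681), and neither was called in the first sequencing project alone. *Tfdp2* was still 1.57 higher in log2 than in undifferentiated cells (edgeR adjusted p = 0.000234). The other genes called higher there, *Rb1* and *Rbl2* (0.47 and 0.28, edgeR adjusted p = 0.0185 and 0.0323), were both lost without undifferentiated replicate 1 or 3 and in the first project alone. *Rbl2* was also lost without undifferentiated replicate 2 or any 1 dedifferentiated library and with DESeq2's size factors, and without dedifferentiated replicate 1 the change of *Rb1* was 0.28.

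Of 7 other tested cyclins and kinases 3 were called higher and 1 lower on differentiation. The lower one was *Cdk2*, the kinase of cyclin E, which went from 35.8 ± 8.96 to 12.2 ± 2.95 CPM and then to 20 ± 4.65 CPM (SD, n = 3). Its log2 change was -1.62 on differentiation (edgeR adjusted p = 0.000155), while that of *Ccne1* was 2.19. *Cdk2* was also lower in dedifferentiated than in undifferentiated cells (log2 change -0.90, edgeR adjusted p = 0.014). Its rise of 0.72 on withdrawal (edgeR adjusted p = 0.0291) was lost without differentiated replicate 1 or 2 or dedifferentiated replicate 2 or 3, with adjusted p of 0.0522 to 0.124, and in the first project alone. *Cdk1*, the mitotic kinase, and *Mnat1*, a subunit of the CDK-activating kinase, rose by 2.49 and 0.67 in log2 on differentiation (edgeR adjusted p = 0.00516 and 0.00238). On withdrawal 3 genes of the list were called lower, and 0 without differentiated replicate 2 or 3 or dedifferentiated replicate 1, 1 without dedifferentiated replicate 2 and 0 in the first project alone.

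The other INK4 genes tested, *Cdkn2a* and *Cdkn2b*, were both called lower on differentiation, and whether *Cdkn2c* differed from them was not tested. *Cdkn2b* (p15) went from 49.4 ± 5.12 to 23.7 ± 4.09 CPM and back to 53 ± 3.66 CPM (SD, n = 3). Its log2 change was -1.12 on differentiation (edgeR adjusted p = 3.35e-05) and 1.17 on withdrawal (edgeR adjusted p = 5.07e-05). *Cdkn2a*, whose locus encodes both p16 and ARF, fell by 0.74 in log2 on differentiation (edgeR adjusted p = 0.00125). After withdrawal it was 0.69 lower than in undifferentiated cells (edgeR adjusted p = 0.0052), a call lost in the first project alone (edgeR adjusted p = 0.092).

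Of the 8 tested genes for turnover of cyclins and inhibitors 3 were called lower on differentiation. The single one called higher was called in 1 of the 9 fits that left out a library, that without undifferentiated replicate 1. *Fbxo4*, an F-box protein linked to cyclin D1 breakdown, and *Fzr1* (Cdh1), an activator of the anaphase-promoting complex, fell by 2.19 and 0.93 in log2 (edgeR adjusted p = 5.24e-05 and 0.000104). *Fbxo4* was thinly counted, with 14 to 37 counts a library (mean 1.76 CPM) in differentiated cells. On withdrawal *Fbxo4* and *Fzr1* were the 2 called higher, by 1.59 and 0.84 (edgeR adjusted p = 0.000937 and 0.000378). In that comparison 0 were called lower, or 1 at an unadjusted p under 0.05 and 0 with DESeq2. Against undifferentiated cells edgeR called 0, with 3 lower at an unadjusted p under 0.05, and DESeq2 called 2 lower.

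Among 8 upstream transcription factors 4 were called higher and 2 lower on differentiation. *Myc* and *Mycn*, growth-promoting factors, rose by 2.29 and 1.58 in log2 (edgeR adjusted p = 0.000492 and 1.33e-05). *Myc* and *Mycn* also fell on withdrawal, by 3.00 and 1.28 (edgeR adjusted p = 0.000174 and 0.000111), and were among the 3 called lower. Another 3 were called higher, and 1 without differentiated replicate 3 and 0 in the first project alone. *Foxo3*, a forkhead factor that can drive *Cdkn1b*, was the single one called higher than in undifferentiated cells (log2 change 0.49, edgeR adjusted p = 0.0385). The *Foxo3* call was lost without each undifferentiated or dedifferentiated library except undifferentiated replicate 2, without the 10 most abundant genes, and in the first project alone.

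**Figure D4:**
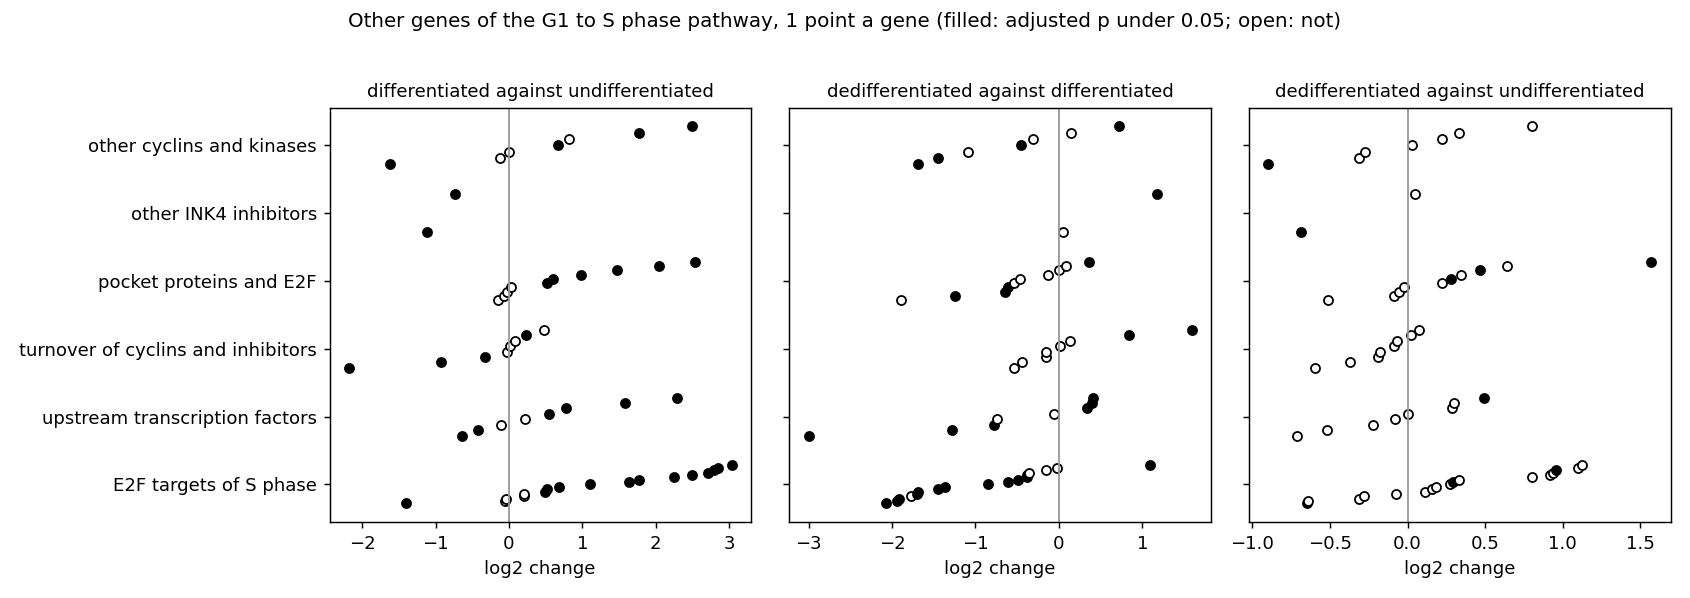
Fitted log2 change (horizontal axis) of each tested gene of 6 pathway lists in the 3 comparisons, 1 point a gene, with a separate scale in each panel. Filled points have an adjusted p under 0.05. In the left panel 12 of the 17 S-phase genes are filled points right of 0.

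Across the 9 libraries the log2 levels of the D-type cyclins followed each other closely, with Pearson's r of 0.992 for *Ccnd1* and *Ccnd2*, 0.985 for *Ccnd1* and *Ccnd3*, and 0.995 for *Ccnd2* and *Ccnd3*. *Cdkn1b* had r of 0.955, 0.968 and 0.957 with these 3, and *Cdkn1a* had 0.942 with *Ccne1*. These values describe libraries that share stages, so a difference between stages alone gives a high r. By the same measure over 7753 named genes of at least 10 CPM on average, or 7754 for *Ccne1*, which itself averages less, the closest genes to *Ccnd1* were *Pcolce* and *Slc19a1* (both 0.998). Those of *Ccnd2* were *Mink1* (0.997) and *Pccb* (0.996), and those of *Ccnd3* were *Dars* (0.996) and *Ccnd2*. *Cdkn1b* was closest to *Shroom3* (0.998) and *Snx5* (0.996), *Cdkn1a* to *Suclg1* (0.997) and *Rars* (0.995), and *Ccne1* to *Mrps2* (0.985) and *Fdx1* (0.983). *Cdk4* was closest to *Mapre1* (0.987) and *Slc1a5* (0.981), *Cdkn1c* to *Wwtr1* (0.976) and *Tbrg4* (0.974), *Cdk6* to *Cmtm4* (0.958) and *Araf* (0.93), and *Cdkn2c* to *Tnpo3* (0.961) and *Rhno1* (0.883).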

How the data were processed

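Cell mRNA was measured in 9 libraries, 3 a stage; the vesicle libraries of the series were not used here. Values are estimated counts per gene, deposited by the authors in a table whose name gives salmon. Per the submitters' processing notes the tools included Trim Galore, STAR, HISAT2, Salmon and DESeq2 1.26.0, with no role stated; build and annotation are not given in the sources used here. Of the values 1.15% were fractional, none of them of the 10 genes, and all were rounded for testing. Reads of near-identical copies can be split by such estimates.

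Columns were matched to samples by library code and stage; the replicate suffix in column names differs from the titles, which were followed. edgeR 4.0.16 in R 4.3.3 (filterByExpr minimum count 10, TMM, quasi-likelihood fit of all 9 libraries, no covariate) tested the 3 pairs of stages. The standard error is the log2 change divided by the square root of F. The method was tested on simulated data, with libraries drawn independently and most genes unchanged. That setting differs from the data here, where 6179 of 10372 genes were called on differentiation. Alternatives were the replicate block, sequencing project as a covariate or the first project alone, DESeq2's size factors or Wald test (DESeq2 1.42.0), library size alone, no filter, no 10 most abundant genes, and each library left out.

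The genes, lists and tests were chosen with earlier results of these data known. Named genes were the 10 themselves, up to 3 of smallest p per list and comparison, called or not, and for each of the 10 the 2 genes of highest Pearson's r of log2 CPM (prior count 2). The lists held 8 other cyclins and kinases, 3 other INK4 genes, 13 pocket protein and E2F genes, 9 turnover genes, 8 transcription factors and 17 S-phase genes; *Ccna2* and *Cdk1* are in 2 lists, and list genes that could not be tested are not analysed here. Another list, and the values of some genes that the rule names, are not reported here.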

Additional observations from a re-analysis of the deposited data

How the results depend on the processing

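Over 17 alternatives for each of the 30 log2 changes (10 genes, 3 comparisons), 485 of 510 values kept direction and side of the threshold, 17 lost their call and 8 changed sign, all 8 of changes that had not been called. The lost calls were those of *Cdk6* and *Cdkn1c* on differentiation and of *Cdk4* and *Cdkn1c* against undifferentiated cells. Leaving out each library in turn gave *Cdk6* -0.34 to 0.17 and *Cdkn2c* -0.12 to 0.21 on withdrawal, and *Ccne1* -0.20 to 0.38 and *Cdkn1a* -0.081 to 0.36 against undifferentiated cells. In the first sequencing project alone *Cdk6* was 0.22 and *Ccne1* -0.13 in these comparisons. Of the listed genes *Cdkn2a* ranged from -0.033 to 0.12 on withdrawal and *Cdkn2b* from -0.036 to 0.16 against undifferentiated cells over the left-out libraries, neither having been called. The first project alone called 2606 genes on withdrawal against 4809 and 1283 against undifferentiated cells against 3045, with 6 libraries in place of 9. No scaling moved the median log2 change of all genes by more than 0.061, the value for library size alone on differentiation.

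Same-numbered libraries deviated together in 7 of 9 pairs at a correlation above 0.1 (0.0279 to 0.305), and the labels tie the numbers to nothing beyond the 2 sequencing projects, so the unblocked fit was kept. With the replicate block 6325, 5031 and 3256 genes were called in the 3 comparisons, against 6179, 4809 and 3045, and 8, 8 and 6 of the 10 genes as before. It also called 6 in place of 3 pocket protein and E2F genes lower on withdrawal, 4 in place of 2 S-phase genes higher against undifferentiated cells, and 0 in place of 1 turnover gene higher on differentiation. Of the libraries, 7 of 9 were closest to their own number in both other stages. *Ccne1*, *Cdk6* and *Cdkn2c* had at most 210, 316 and 216 counts in a library, which limits the precision of their changes.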
